A study of Mus musculus with 24 samples.

Results

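The 10 genes described here are 6 transcription factors that act in the trophectoderm lineage (Cdx2, Gata2, Gata3, Elf5, Tfap2c and Hand1) and 4 keratins of simple epithelia (Krt7, Krt8, Krt18 and Krt19). They were listed by name out of 55291 gene symbols in the deposited tables, with earlier results of these data known. All were followed through all 12 groups. The cells were E14Tg2a mouse embryonic stem cells (strain 129/Ola), grown without feeders in serum, leukemia inhibitory factor, CHIR99021 and PD0325901. In every line the endogenous CTCF protein carried an auxin-inducible degron, so that 500 µM indole-3-acetic acid (IAA) triggers its breakdown, and 1 µg/ml doxycycline switches on a Ctcf transgene, with either agent given for 2 days. CTCF is the zinc finger protein that occupies insulator sites and stops cohesin as it extrudes loops. The mutant lines, given both agents (ID), carried the Ctcf substitution R339Q, R342C, S354F, K365T, R377C, R377H, Q418R, R448Q or H455R. The wild-type transgene line was given IAA alone (WT IAA), both agents (WT ID) or neither (WT UN). Each group had 2 libraries. Each substitution was in 1 line, so the line and the substitution cannot be told apart. Whether the 2 libraries came from separate cultures is not in the labels, so the spread behind the p-values is that of these samples and may be technical.

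The trophectoderm is the outer epithelium of the blastocyst and the source of the placenta. Cdx2 and Elf5 help to fix and keep its fate, Gata2, Gata3 and Tfap2c act beside them, and Hand1 is needed for trophoblast giant cells. Keratins build intermediate filaments as pairs of a type II chain (Krt7 and Krt8 here) and a type I chain (Krt18 and Krt19 here). Krt8 and Krt18 are the first pair made in the mouse embryo and are strong in the trophectoderm. Several of these genes have other homes as well: Gata2 and Gata3 in blood and other lineages, Tfap2c in germ cells and pluripotent cells, Hand1 in heart and extraembryonic mesoderm, and Cdx2 in the tail bud and gut.

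Libraries held 27761749 to 77141117 whole reads of total RNA, recovered from the deposited normalized counts. Levels below are in TPM (reads per gene length, scaled to the same total in each library), and changes are log2 fold changes of normalized counts (+ 1) with their standard errors, from 1 limma fit to 22 libraries. A gene was called at an adjusted p under 0.05, and replicate means of counts carry an SD with n = 2. Ctcf RNA, which the degron does not act on, stood at 141 to 284 TPM in the 18 mutant libraries, 141 to 145 in WT IAA, 155 to 160 in WT ID and 125 to 126 in WT UN. The cells had RNA of pluripotency genes, with 14 of these summing to 5830 to 7260 TPM in the 22 libraries of the fit. Of 22 other trophectoderm and trophoblast genes 15 had a mean of at least 10 normalized counts, and the list summed to 134 to 216 TPM in the same libraries. Among the other 7 were late trophoblast markers at or near 0 (Synb, Prl3d1 and Prl3b1 at 0 and Tpbpa at a mean of 0.023 normalized counts over the 22 libraries). The name trophectoderm here refers to the lineage in which these genes act in the embryo. In bulk RNA, fewer cells with a transcript and less transcript per cell cannot be told apart.

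Of the 10 genes 9 had a mean of at least 10 normalized counts and were tested, and Elf5 was not. Elf5, an ETS factor of the trophoblast stem cell state, had 0 reads in 15 of 24 libraries and 1 to 3 reads in the other 9. A count of 0 allows up to 3 reads, or 0.0389 to 0.108 CPM by library, counting error only. Against WT ID, 2 (S354F and R377C) to 8 (H455R) of the 9 genes were called in a comparison. Of all 18713 tested genes, 1514 (R377C) to 8578 (R448Q) were called in either direction. Many of the calls ended with 1 library left out, as given with each gene below. The share of the 18713 genes called in the same direction is given with each count below. In H455R 7 genes rose (background 12.6%) and 1 fell (10.5%). In R339Q 5 rose (11.8%) and 1 fell (9.70%), and in R342C 4 rose (10.0%) and 2 fell (13.3%). In Q418R 4 rose (11.2%) and 1 fell (13.8%), and in WT IAA 4 rose (9.96%) and 1 fell (10.7%). R448Q had 1 higher (22.8%) and 5 lower (23.1%). R377H had 2 higher (14.4%) and 3 lower (10.7%), and K365T 2 higher (17.7%) and 2 lower (14.2%). S354F had 2 higher (5.49%) and 0 lower (4.31%), and R377C 1 higher (4.67%) and 1 lower (3.43%). The median log2 fold change of the 9 genes was 1.07 in H455R and -0.945 in R448Q, against -0.0101 and -0.00936 over all tested genes in those comparisons. All 10 of these comparisons share the WT ID libraries.

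**Figure D1:**
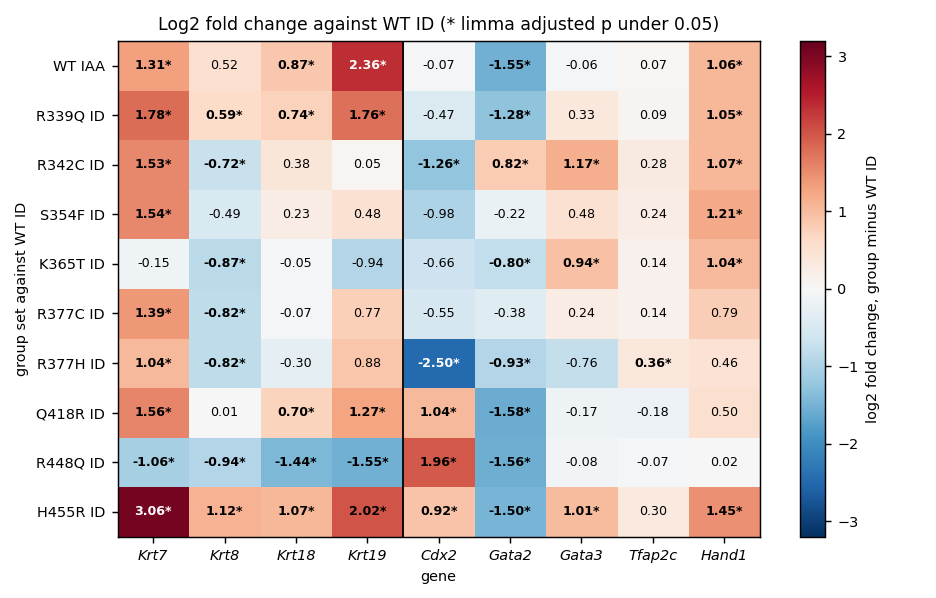
Log2 fold change of the 9 tested genes (columns, keratins left of the line) in each group set against WT ID (rows), with an asterisk where limma's adjusted p is under 0.05. H455R has 7 positive calls, led by Krt7 at 3.06, and R448Q has negative calls for all 4 keratins with a positive one for Cdx2 at 1.96.

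The 4 keratin genes lie at 2 places in the mm10 genome. On chromosome 15, Krt7 (chr15:101411043-101430313, plus strand) is 566.4 kb from Krt8 (chr15:101996698-102004482, minus strand), and Krt8 is 23.7 kb from Krt18 (chr15:102028180-102032027, plus strand). Krt19 is on chromosome 11 (chr11:100140810-100148665, minus strand). Krt8 overlaps Gm36026 and Krt7 overlaps Gm671 on the other strand, but these partners and the pseudogene Krt8-ps had at most 5.82 normalized counts in any library.

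The 250 bases ahead of the RefSeq starts of the 3 chromosome 15 keratins are printed because these neighbours rose together in H455R and fell together in R448Q. Capitals mark letters on either strand that match 1 of 3 motifs. CCCTC is the run from which CTCF takes its name. GCCNNNGGC is a motif of TFAP2 factors. The motif AGATAA is one that GATA factors bind. The sequences are from RefSeq (GRCm38.p6, the C57BL/6J reference and not the 129/Ola cells), 5′ to 3′ on the strand of the gene. The Krt7 window is chr15:101412153-101412402 (plus), that of Krt8 chr15:102004343-102004592 (minus) and that of Krt18 chr15:102027966-102028215 (plus). These RefSeq starts differ from the gene coordinates given above. By those coordinates the Krt7 window lies inside the gene, and the windows of Krt8 and Krt18 reach into theirs.
Krt7: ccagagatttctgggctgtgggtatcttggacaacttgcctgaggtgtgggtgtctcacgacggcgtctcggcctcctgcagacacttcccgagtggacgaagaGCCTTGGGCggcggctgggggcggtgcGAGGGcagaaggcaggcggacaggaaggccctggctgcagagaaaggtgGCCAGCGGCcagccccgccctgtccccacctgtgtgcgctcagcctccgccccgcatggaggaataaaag
Krt8: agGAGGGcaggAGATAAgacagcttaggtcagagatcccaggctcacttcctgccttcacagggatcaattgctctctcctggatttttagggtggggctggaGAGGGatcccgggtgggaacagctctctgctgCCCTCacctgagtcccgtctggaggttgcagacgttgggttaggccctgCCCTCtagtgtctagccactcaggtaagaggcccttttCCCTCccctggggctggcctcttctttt
Krt18: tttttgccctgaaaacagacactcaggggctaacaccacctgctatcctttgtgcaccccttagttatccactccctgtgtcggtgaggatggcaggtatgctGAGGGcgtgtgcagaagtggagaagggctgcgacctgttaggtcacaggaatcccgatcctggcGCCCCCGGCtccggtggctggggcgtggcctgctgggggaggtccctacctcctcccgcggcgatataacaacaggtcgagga
CCCTC occurred 5 times in the Krt8 window and 1 time in each of the others, and 60.5% of 32851 mouse promoter windows hold it. GCCNNNGGC occurred in Krt7 (2 matches) and Krt18 (1 match), against 13.7% of all windows. AGATAA occurred in the Krt8 window alone of these 3, against 9.99% of all windows. Of these motifs CCCTC was the one found in all 3 windows, and no marked matches overlap. A match is a description of letters and not a bound site. Of the 10 genes 7 had a window in the RefSeq table.

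Krt7, a type II keratin of simple and glandular epithelia, had the largest change of the 4. In H455R its 2 libraries held 4.67 and 2.77 TPM, against 0.372 and 0.464 TPM in WT ID. R339Q libraries held 1.75 and 1.25 TPM, R342C 1.33 and 1.28, S354F 1.49 and 1.03, and R377C 1.02 and 1.22. Q418R libraries held 1.55 and 0.876 TPM, R377H 0.841 and 0.790, and WT IAA 0.765 and 1.46. All libraries of these 8 groups were above both WT ID libraries. Only K365T (0.288 and 0.432 TPM) overlapped WT ID, and R448Q (0.153 and 0.193 TPM) was below it. WT UN libraries were lower still, at 0.0720 and 0.0920 TPM from 5 and 8 reads.

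Relative to WT ID, Krt7 rose in 7 of the 9 mutants and in WT IAA, and fell in R448Q. The rise in H455R was 3.06 ± 0.35 on the log2 scale (8.31-fold, adjusted p = 3.94e-06), with 345 ± 135 normalized counts in H455R and 39.4 ± 8.11 in WT ID. It was 1.78 ± 0.35 in R339Q (adjusted p = 0.00102), 1.53 ± 0.35 in R342C (adjusted p = 0.00403) and 1.31 ± 0.35 in WT IAA (adjusted p = 0.0113). The calls in H455R, R339Q and R342C held with any 1 library left out. The WT IAA call ended without WT IAA replicate 2 (adjusted p = 0.206) or WT ID replicate 1 (0.106). The rise of 1.54 in S354F ended without S354F replicate 1 (adjusted p = 0.0981) or WT ID replicate 1 (0.0867), and that of 1.56 in Q418R without Q418R replicate 1 (0.0574). That of 1.39 in R377C ended without R377C replicate 2 (adjusted p = 0.147) or WT ID replicate 1 (0.161). The R377H rise of 1.04 ended without any 1 of its 4 libraries (adjusted p = 0.052 to 0.213) and on TPM (adjusted p = 0.0857). The fall in R448Q, -1.06 ± 0.35 (adjusted p = 0.0168), ended without R448Q replicate 1 (adjusted p = 0.111) or WT ID replicate 2 (0.127).

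Krt8, the type II partner of Krt18, was the most abundant of the 4 keratins in every library. Its libraries held 100.2 and 91.3 TPM in H455R, 70.1 and 62.8 in R339Q and 62.3 and 62.6 in WT IAA, against 47.6 and 39.3 TPM in WT ID. Q418R libraries held 35.8 and 46.7 TPM and overlapped WT ID. The other 6 mutants lay below WT ID, at 33.7 and 28.5 TPM in S354F, 27.6 and 28.6 in R342C, 29.5 and 20.7 in R377C, 24.1 and 21.9 in R377H, 21.5 and 23.2 in K365T and 15.6 and 25.6 in R448Q. WT UN held 22.2 and 18.5 TPM, beside the lowest mutants.

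Krt8 rose against WT ID in H455R (1.12 ± 0.19, adjusted p = 0.000294) and R339Q (0.59 ± 0.19, adjusted p = 0.0327). It fell in R448Q (-0.94 ± 0.19, adjusted p = 0.000459), K365T (-0.87, adjusted p = 0.00175), R377H (-0.82, adjusted p = 0.00355), R377C (-0.82, adjusted p = 0.0109) and R342C (-0.72, adjusted p = 0.0111). The falls in K365T, R377H and R448Q and the rise in H455R held with any 1 library left out, though the R448Q value was -0.59 without R448Q replicate 1. The R377C call ended without R377C replicate 2 (adjusted p = 0.187) or WT ID replicate 1 (0.11), and the R342C call without R342C replicate 1 (0.0926) or WT ID replicate 1 (0.0861). The R339Q call ended without R339Q replicate 1 (adjusted p = 0.247), WT ID replicate 1 (0.0735) or WT ID replicate 2 (0.188), and with no filter on low counts (0.08). In WT IAA Krt8 did not pass (0.52 ± 0.19, adjusted p = 0.0653), although edgeR gave an adjusted p of 0.0488 and DESeq2 one of 0.026. S354F gave -0.49 ± 0.19 (adjusted p = 0.12) and Q418R 0.01 ± 0.19 (adjusted p = 0.979).

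Krt18, the type I partner of Krt8, was called in the same direction as Krt8 in H455R, R339Q and R448Q. Its libraries held 30.3 and 26.5 TPM in H455R, 21.5 and 23.3 in R339Q, 18.0 and 22.5 in Q418R and 25.0 and 23.9 in WT IAA, against 15.2 and 11.4 TPM in WT ID. R448Q libraries held 3.85 and 4.77 TPM and were the lowest of the 24. The libraries of the other 5 mutants held 9.99 to 21.1 TPM and WT UN 10.8 and 9.40 TPM.

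Krt18 rose in H455R (1.07 ± 0.17, adjusted p = 0.000141), WT IAA (0.87 ± 0.17, adjusted p = 0.00138), R339Q (0.74 ± 0.17, adjusted p = 0.00421) and Q418R (0.70 ± 0.17, adjusted p = 0.00507). It fell in R448Q, by 1.44 on the log2 scale (adjusted p = 1.08e-06), with 92.6 ± 14 normalized counts in R448Q and 254 ± 38.4 in WT ID. The calls in H455R, WT IAA and R448Q held with any 1 library left out. That in R339Q ended without WT ID replicate 2 (adjusted p = 0.0729), and that in Q418R without Q418R replicate 2 (0.0884) or WT ID replicate 2 (0.0832). In R342C, K365T, R377C and R377H, where Krt8 fell, Krt18 gave 0.38, -0.05, -0.07 and -0.30 ± 0.17 and was not called (adjusted p = 0.114 to 0.877). Whether the 2 genes differed in their change was not tested.

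The balance of the pair moved with this. The ratio of Krt8 to Krt18 TPM was 3.31 and 3.45 in H455R and 3.26 and 2.70 in R339Q, against 3.12 and 3.44 in WT ID. It was 1.71 and 1.36 in R342C, 1.78 and 1.91 in K365T, 2.23 and 1.76 in S354F and 2.43 and 1.57 in R377C. It was 2.42 and 2.16 in R377H, 1.98 and 2.08 in Q418R and 2.49 and 2.62 in WT IAA, and all libraries of these 7 groups were below both WT ID libraries. In R448Q, where both genes fell, it was 4.05 and 5.36, above both. WT UN had 2.04 and 1.97. The 4 keratins summed to 142 and 126 TPM in H455R, 19.9 and 31.1 in R448Q, 94.8 and 96.7 in WT IAA, 64.5 and 52.7 in WT ID and 38.1 and 32.7 in WT UN.

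**Figure D2:**
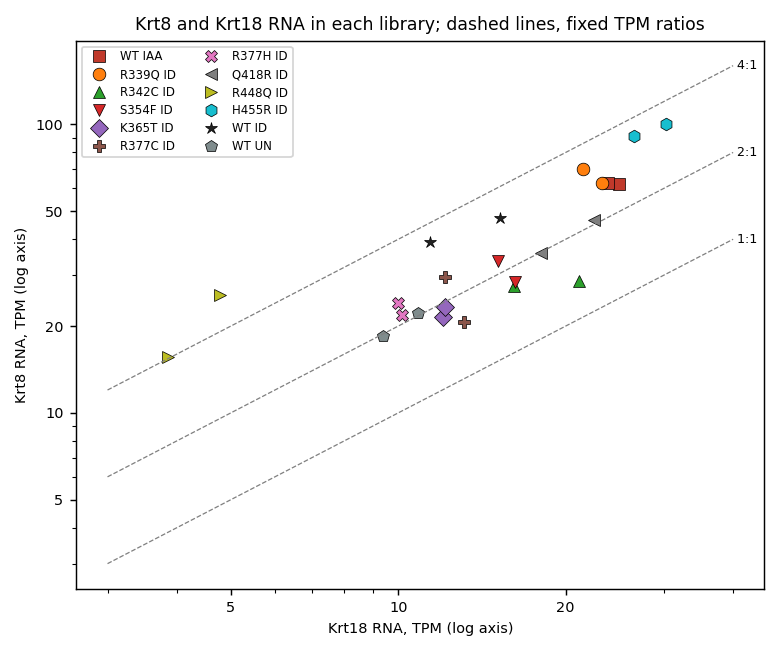
Krt8 TPM against Krt18 TPM (log axes), 1 point per library, with dashed lines at fixed ratios. H455R libraries lie at the upper right, R448Q libraries at the lower left near or above the 4:1 line, and WT ID between 3:1 and 4:1, above the R342C, S354F and K365T libraries at similar Krt18 levels.

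Krt19, the type I keratin that lacks a long tail domain, had its highest level in WT IAA. Its libraries held 6.77 and 8.78 TPM there, against 1.35 and 1.57 TPM in WT ID. H455R held 6.40 and 5.87 TPM, R339Q 5.52 and 4.75, Q418R 2.79 and 3.99 and R377C 3.05 and 2.10, all above WT ID. R377H (3.29 and 1.97 TPM) and S354F (2.14 and 1.99 TPM) were above it too, and R342C (1.33 and 1.98 TPM) overlapped it. K365T (0.491 and 0.994 TPM) and R448Q (0.327 and 0.533 TPM, from 9 and 16 reads) were below WT ID. WT UN held 5.01 and 4.74 TPM, above WT ID.

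Krt19 rose in WT IAA by 2.36 ± 0.36 (5.13-fold, adjusted p = 0.000142), with 190 ± 36.4 normalized counts in WT IAA and 36.1 ± 5.6 in WT ID. It also rose in H455R (2.02, adjusted p = 0.000364), R339Q (1.76, adjusted p = 0.00134) and Q418R (1.27, adjusted p = 0.0129), and fell in R448Q (-1.55 ± 0.36, adjusted p = 0.00132). These calls held with any 1 library left out but for Q418R, which ended without Q418R replicate 2 (adjusted p = 0.124) or WT ID replicate 1 (0.102). K365T gave -0.94 ± 0.36 (adjusted p = 0.0502). The median of chromosome 11 in K365T was 0.382 above that of all genes, and with values centred per chromosome Krt19 gave -1.32 (adjusted p = 0.00965). Without K365T replicate 2 it gave -1.43 (adjusted p = 0.0115). R377H, where chromosome 11 was 0.543 above, gave 0.88 ± 0.36 (adjusted p = 0.0783) and, centred, 0.34 (adjusted p = 0.548). R377C gave 0.77 ± 0.36 (adjusted p = 0.221).

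**Figure D3:**
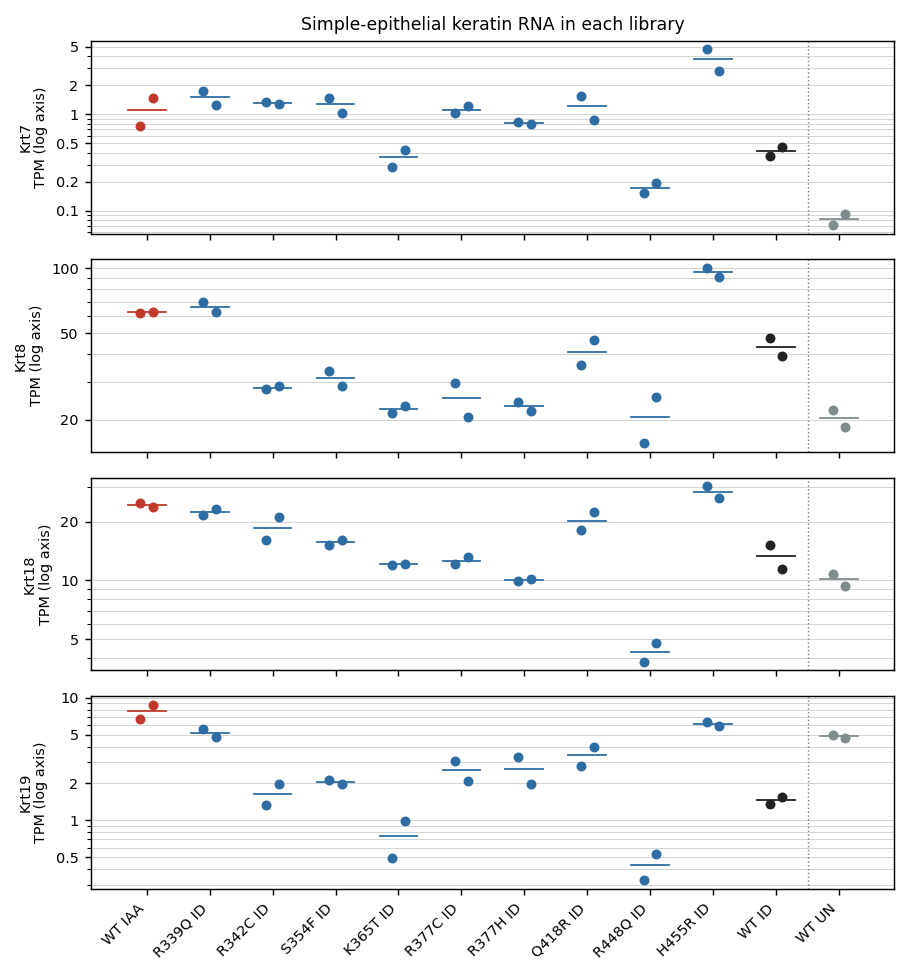
TPM of the 4 keratins in each library (points, log axes that differ between panels) with the group mean (bar), 2 libraries per group; WT UN, right of the dotted line, comes from a separately scaled table. H455R is the highest group for Krt7, Krt8 and Krt18, R448Q is below WT ID for all 4, and Krt19 alone is lower in WT ID (1.46 TPM) than in WT UN (4.88 TPM).

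The keratins did not all move together: Krt7 rose and Krt8 fell against WT ID in R342C (1.53 and -0.72), R377C (1.39 and -0.82) and R377H (1.04 and -0.82). Over the 11 group means of log2 values, Pearson's r was 0.777 for Krt8 and Krt18 (Spearman's rho 0.918), 0.84 for Krt7 and Krt18 and for Krt18 and Krt19, 0.831 for Krt7 and Krt19, 0.783 for Krt8 and Krt19 and 0.641 for Krt7 and Krt8. Among the factors the strongest relation was a negative one, r = -0.713 between Cdx2 and Tfap2c. These are descriptions of 11 groups that share one normalization, with 2 groups, H455R and R448Q, at the ends of the keratin range. Over the 9 groups without these 2, r was 0.282 for Krt7 and Krt8, 0.554 for Krt7 and Krt18, 0.808 for Krt8 and Krt18, 0.679 to 0.731 for the 3 pairs with Krt19 and -0.965 for Cdx2 and Tfap2c.

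Among the factors, Cdx2 (chr5:147300805-147307270, minus strand), the homeobox gene needed for trophectoderm fate, had the widest spread. Its libraries held 5.19 and 4.78 TPM in R448Q, 2.59 and 2.96 in Q418R and 2.72 and 2.80 in H455R, against 1.39 and 1.45 TPM in WT ID. R377H was the lowest group at 0.259 and 0.169 TPM, from 7 and 5 reads. WT IAA held 1.30 and 1.42 TPM, R339Q 0.950 and 1.12, R377C 1.31 and 0.710, K365T 0.898 and 0.780, S354F 0.563 and 0.883 and R342C 0.788 and 0.475. WT UN held 0.537 and 0.396 TPM. R448Q thus had Cdx2 at its highest and all 4 keratins below WT ID.

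Cdx2 rose in R448Q by 1.96 ± 0.31 (3.89-fold, adjusted p = 3.6e-05), with 169 ± 9.74 normalized counts in R448Q and 42.7 ± 3.46 in WT ID. It fell in R377H (-2.50 ± 0.31, adjusted p = 6.19e-06), with 6.84 ± 1.99 normalized counts there. Both calls held with any 1 library left out. It rose too in Q418R (1.04, adjusted p = 0.0189) and H455R (0.92, adjusted p = 0.0393) and fell in R342C (-1.26, adjusted p = 0.007). The Q418R call ended without Q418R replicate 2 (adjusted p = 0.112), WT ID replicate 1 (0.113) or WT ID replicate 2 (0.061), and the R342C call without R342C replicate 2 (0.0688) or WT ID replicate 2 (0.0633). The H455R call ended without any 1 of its 4 libraries (adjusted p = 0.102 to 0.184) and with no filter on low counts (0.0797). S354F gave -0.98 ± 0.31 (adjusted p = 0.0524), which passed with a pseudocount of 5 (0.0444) and with quantile normalization (0.0266).

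The promoter window of Cdx2 (GRCm38.p6 chr5:147307250-147307499, minus strand) is printed because this gene ran against the keratins in R448Q, with the same meaning of capitals. The window reaches into the Cdx2 gene by the coordinates given above.
Cdx2: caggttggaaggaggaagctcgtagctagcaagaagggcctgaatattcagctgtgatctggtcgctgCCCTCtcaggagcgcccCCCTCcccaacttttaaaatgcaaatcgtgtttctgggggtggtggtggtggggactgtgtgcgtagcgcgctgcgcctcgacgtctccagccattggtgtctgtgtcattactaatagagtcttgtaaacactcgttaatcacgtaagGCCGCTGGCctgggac
It held CCCTC 2 times and the TFAP2 letters GCCNNNGGC 1 time, and no AGATAA. The letters of a CDX motif, TTTATNG (in 9.81% of all windows), were not in this window.

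Gata2 (chr6:88193891-88207032, plus strand), a zinc finger factor of trophoblast and of blood progenitors, was the gene that fell most often. Its libraries held 31.0 and 25.7 TPM in R342C, against 16.9 and 13.1 TPM in WT ID. S354F (13.8 and 12.0 TPM) and R377C (9.66 and 13.9 TPM) overlapped WT ID. The other 6 mutants and WT IAA lay below it. R377H held 7.36 and 7.29 TPM, R339Q 5.82 and 6.63, H455R 5.57 and 5.16, R448Q 5.35 and 3.76, Q418R 4.57 and 4.76 and WT IAA 6.21 and 4.26. K365T libraries were far apart, at 5.65 and 11.7 TPM. WT UN held 9.93 and 8.25 TPM.

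Gata2 fell in Q418R (-1.58 ± 0.25, adjusted p = 0.000124), R448Q (-1.56, adjusted p = 4.38e-05), WT IAA (-1.55, adjusted p = 0.000295), H455R (-1.50, adjusted p = 0.000238) and R339Q (-1.28, adjusted p = 0.00113). These 5 calls held with any 1 library left out. In Q418R the median of chromosome 6 was 0.462 below that of all genes, and the centred value for Gata2 was -1.12 (adjusted p = 0.00344). The R377H fall of 0.93 (adjusted p = 0.0101) ended without R377H replicate 1 (adjusted p = 0.0501), R377H replicate 2 (0.0556) or WT ID replicate 1 (0.096). The K365T value of -0.80 (adjusted p = 0.0212) was -0.26 without K365T replicate 1 (adjusted p = 0.411) and ended too without WT ID replicate 1 (0.147) and under DESeq2 (0.0532). The rise in R342C, 0.82 ± 0.25 (adjusted p = 0.0244), ended without any 1 of its 4 libraries (adjusted p = 0.0508 to 0.172) and with no filter on low counts (0.0628).

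Gata3 (chr2:9857078-9890034, minus strand), which can drive trophoblast genes when forced in stem cells, was scarce. Group means ran between 0.274 TPM in R377H and 1.24 TPM in R342C, with 0.524 TPM in WT ID, whose 2 libraries differed at 0.702 and 0.347 TPM. It rose in R342C (1.17 ± 0.35, adjusted p = 0.021), H455R (1.01 ± 0.35, adjusted p = 0.0428) and K365T (0.94 ± 0.35, adjusted p = 0.0477). The 3 calls ended without WT ID replicate 2 (adjusted p = 0.267, 0.407 and 0.42) and with no filter on low counts (0.0503, 0.0931 and 0.102). The R342C call ended also without R342C replicate 2 (adjusted p = 0.169), and the H455R call without H455R replicate 1 (0.0595) or 2 (0.256). The K365T call ended without K365T replicate 1 (adjusted p = 0.0653) or 2 (0.209), under edgeR (0.0536) and with the replicate number as a block (0.0529). Other settings ended these Gata3 calls too. That in K365T ended on TPM (adjusted p = 0.0676), under DESeq2 (0.103) and with values centred per chromosome (0.0522). That in H455R ended under DESeq2 (adjusted p = 0.0718) and with quantile normalization (0.0674), and that in R342C with quantile normalization (0.0596). Gm13256, 4930412O13Rik and 9230102O04Rik overlap Gata3 and had at most 4.76 normalized counts.

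Hand1 (chr11:57828705-57832818, minus strand), a basic helix-loop-helix factor, was higher than WT ID in the mean TPM of 8 of the 9 mutants and was called in 5. In R448Q its mean TPM was lower and its log2 fold change was 0.02 ± 0.35. With log2 values centred per chromosome, Hand1 was above WT ID in 7 of the 9. The TPM of its H455R libraries were 1.43 and 2.06, against 0.799 and 0.436 in WT ID and 0.203 and 0.0810 in WT UN (4 and 2 reads). It rose in H455R (1.45 ± 0.35, adjusted p = 0.00498), S354F (1.21, adjusted p = 0.0328), R342C (1.07, adjusted p = 0.0333), WT IAA (1.06, adjusted p = 0.0375), R339Q (1.05, adjusted p = 0.0376) and K365T (1.04, adjusted p = 0.0294). All 6 calls ended without WT ID replicate 2, the lower WT ID library (adjusted p = 0.0896 to 0.325), and all but that of H455R ended under DESeq2 (0.0748 to 0.0903) and with no filter on low counts (0.0695 to 0.0876). The H455R call ended also without H455R replicate 2 (adjusted p = 0.0621), that of WT IAA without WT IAA replicate 2 (0.292) and that of K365T without K365T replicate 2 (0.242). Those of R339Q (adjusted p = 0.0529 and 0.269), R342C (0.0983 and 0.119) and S354F (0.0992 and 0.153) ended without either library of the mutant. Centred per chromosome, the K365T value was 0.65 (adjusted p = 0.179), the R339Q value 0.96 (adjusted p = 0.0573) and the R377H value -0.08, against 0.46 uncentred, so that the direction turned in R377H.

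Tfap2c (chr2:172549593-172558622, plus strand), an AP-2 factor active in both trophoblast and naive stem cells, was the most abundant of the 6 factors. Among the mutants its libraries ran between 54.6 TPM in R448Q and 97.1 TPM in H455R, with 73.4 and 69.7 TPM in WT ID and 49.5 and 47.6 TPM in WT UN. It was called against WT ID in R377H alone (0.36 ± 0.11, adjusted p = 0.024), a call that ended without any 1 of the 4 libraries (adjusted p = 0.0508 to 0.153) and on TPM (0.0737). H455R gave 0.30 ± 0.11 (adjusted p = 0.0687) and R342C 0.28 ± 0.11 (adjusted p = 0.0813), and edgeR called both (0.0478 and 0.048).

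**Figure D4:**
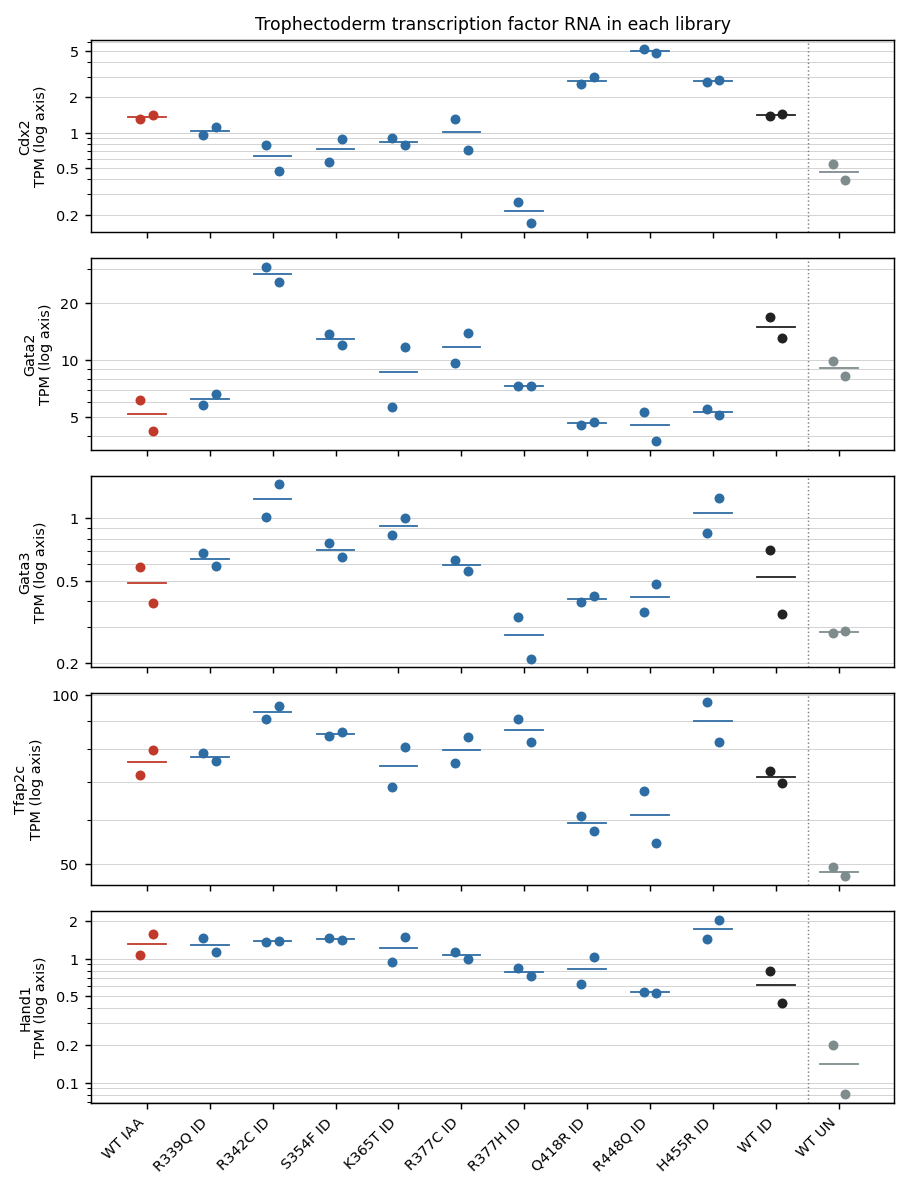
TPM of 5 factors in each library (points, log axes that differ between panels) with the group mean (bar), 2 libraries per group; WT UN, right of the dotted line, comes from a separately scaled table, and Elf5 is left out because most libraries held 0 reads. Cdx2 is highest in R448Q (4.99 TPM) and lowest in R377H (0.214 TPM), and Gata2 is highest in R342C (28.4 TPM).

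Substitutions that lie close together in CTCF were compared with each other in the same fit. In H455R, 7 of the 9 genes were higher than in R448Q (background 22.7%) and 1 was lower (21.9%). Krt7 was 4.12 ± 0.35 higher in H455R (17.4-fold, adjusted p = 1.47e-08), with 345 ± 135 normalized counts in H455R and 18.2 ± 2.96 in R448Q. Krt19 was 3.57 ± 0.36 higher (adjusted p = 1.16e-07), Krt18 2.52 ± 0.17 (adjusted p = 1.2e-09), Krt8 2.06 ± 0.19 (adjusted p = 5.34e-08) and Hand1 1.43 ± 0.35 (adjusted p = 0.00228). These 5 calls held with any 1 library left out. Gata3 was 1.10 ± 0.35 higher (adjusted p = 0.0152) and Tfap2c 0.36 ± 0.11 (adjusted p = 0.0135), and Cdx2 was lower (-1.04 ± 0.31, adjusted p = 0.0104). The Gata3 call ended without R448Q replicate 1 (adjusted p = 0.124) or H455R replicate 2 (0.137), the Cdx2 call likewise (0.0642 and 0.0508), and the Tfap2c call without R448Q replicate 2 (0.231) or H455R replicate 1 (0.219). Gata2, low in both, was not called.

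In R342C, 1 of the 9 genes was higher than in R339Q (background 10.9%) and 2 were lower (15.8%). Gata2 was 2.10 ± 0.25 higher in R342C (adjusted p = 1.62e-05), with 1896 ± 135 normalized counts in R342C and 440 ± 20.5 in R339Q. Krt19 (-1.71 ± 0.36, adjusted p = 0.00173) and Krt8 (-1.31 ± 0.19, adjusted p = 9.54e-05) were lower in R342C. Krt7, which had risen in both against WT ID, gave -0.25 ± 0.35 (adjusted p = 0.638). The 3 calls held with any 1 library left out.

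In K365T, 0 of the 9 genes were higher than in S354F (background 16.0%) and 2 were lower (12.2%). These were Krt7 (-1.69 ± 0.35, adjusted p = 0.00122) and Krt19 (-1.42 ± 0.36, adjusted p = 0.00559). The Krt19 call ended without K365T replicate 1 (adjusted p = 0.0888). R377C and R377H, 2 substitutions of the same arginine, had 1 gene of the 9 higher in R377C (background 7.88%) and 0 lower (11.1%). That gene, Cdx2, was 1.95 ± 0.31 higher in R377C (adjusted p = 0.000149), with 29.9 ± 12 normalized counts in R377C and 6.84 ± 1.99 in R377H. Gata3 gave 1.00 ± 0.35 (adjusted p = 0.0521). Krt8, which had fallen by 0.82 in both, gave a difference that rounded to 0 with a standard error of 0.19 (adjusted p = 0.997).

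The study included untreated cells to gauge the rescue by the wild-type transgene. WT UN stands in tables of its own, so a difference of batch cannot be told apart from one of treatment. Because the WT UN table was scaled separately, TPM were set side by side with no test, and genes were counted where mean TPM (+ 0.1) differed 2-fold or more and libraries did not overlap. By this count Cdx2, Hand1, Krt7 and Krt8 were higher in WT ID than in WT UN, against 10.2% of all genes, and Krt19 was lower, against 2.01%. With 1 added to TPM in place of 0.1 the count of genes fell to 2 of these 5, and Krt7 and Hand1 rested on 2 to 8 reads a library in WT UN. Krt8 averaged 43.4 ± 5.85 TPM in WT ID and 20.3 ± 2.59 in WT UN, and Cdx2 1.42 ± 0.0424 TPM in WT ID and 0.467 ± 0.0997 in WT UN. Krt19 averaged 1.46 ± 0.152 TPM in WT ID and 4.88 ± 0.196 in WT UN. Krt18 averaged 13.3 ± 2.68 TPM in WT ID and 10.1 ± 1.02 in WT UN, under 2-fold apart. By the same 2-fold count more of all genes, too, were higher in WT ID (10.2%) than lower (2.01%).

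WT IAA had 5 genes at least 2-fold above WT UN, against 13.4% of all genes, and 0 below it, against 3.33%. The 5 were Cdx2, Hand1, Krt7, Krt8 and Krt18, and with 1 added the count was 3. Krt7 averaged 1.11 ± 0.492 TPM in WT IAA and 0.082 ± 0.0141 in WT UN, and Krt8 62.5 ± 0.206 TPM in WT IAA and 20.3 ± 2.59 in WT UN. Krt19 averaged 7.77 ± 1.42 TPM in WT IAA and 4.88 ± 0.196 in WT UN, and Gata2 5.23 ± 1.38 TPM in WT IAA and 9.09 ± 1.19 in WT UN, both under 2-fold apart. Mean levels in WT ID lay between WT IAA and WT UN for Krt7, Krt8, Krt18, Hand1 and Tfap2c. They lay above both for Gata2, Cdx2 and Gata3, by little for the last 2 (Cdx2 at 1.36 TPM in WT IAA and 1.42 in WT ID, Gata3 at 0.488 in WT IAA and 0.524 in WT ID), and below both for Krt19.

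Other genes of the same lineage and of epithelia were counted from lists. Of 22 other trophectoderm and trophoblast genes 15 were tested. In H455R 7 rose (background 12.6%) and 2 fell (10.5%), led by Rhox6 (1.34 ± 0.30, adjusted p = 0.00318), Fgfr2, the receptor that keeps trophoblast stem cells dividing (1.20, adjusted p = 0.00186), and Dlx3, a placental homeobox gene (1.18, adjusted p = 8.76e-05). In R448Q 2 rose (22.8%) and 6 fell (23.1%), led by Ascl2, an imprinted factor of the placenta (-3.00 ± 0.34, adjusted p = 5.65e-07), and Id2 (-2.28 ± 0.22, adjusted p = 8.23e-08). In R377H 2 rose (14.4%) and 7 fell (10.7%), among them Eomes, a T-box factor of trophoblast stem cells (-1.24 ± 0.22, adjusted p = 0.000236), while Cdh3, the placental cadherin, rose (1.36, adjusted p = 3.27e-06). The list's median log2 fold change was 0.347 in H455R, -0.0392 in R448Q and -0.313 in R377H.

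Of 27 epithelial junction and identity genes, all tested, 8 rose (background 12.6%) and 0 fell (10.5%) in H455R, led by Grhl2, an activator of epithelial genes (1.00 ± 0.14, adjusted p = 3.34e-05), and the epithelial splicing factors Esrp2 (0.98, adjusted p = 2.52e-06) and Esrp1 (0.86, adjusted p = 0.00147). In R448Q 3 rose (22.8%) and 14 fell (23.1%), led by Cldn7 (-2.25 ± 0.20, adjusted p = 2.79e-08), the protease gene Prss8 (-1.97, adjusted p = 7.9e-07) and Cldn6 (-1.70, adjusted p = 2.3e-08). Claudins seal tight junctions. The median log2 fold change of the 27 genes was 0.198 in H455R and -0.437 in R448Q. Between H455R and R448Q 19 of the 27 were higher (22.7%) and 1 lower (21.9%) in H455R. The list did not follow Krt8 in every mutant: in R342C, where Krt8 fell, 9 rose (10.0%) and 3 fell (13.3%). In R339Q, where Krt8 rose, 8 rose (11.8%) and 4 fell (9.70%). The summed level of the list was 2280 to 2460 TPM in H455R, 1290 to 1300 in R448Q, 1970 to 2170 in R342C and 1750 to 1890 in WT ID.

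Of 21 other keratins and intermediate filament genes 14 were tested. Keratins of stratified epithelia, Krt5 and Krt14, had means of 2.43 and 0.359 normalized counts and were not. In H455R 6 rose (background 12.6%) and 2 fell (10.5%), led by Prph, a neuronal filament (1.82 ± 0.31, adjusted p = 0.000224), Krt80 (1.71 ± 0.40, adjusted p = 0.00411) and Krt42 (1.19 ± 0.25, adjusted p = 0.00186). In R448Q 4 rose (22.8%) and 4 fell (23.1%), shares near those of all genes, led by the neurofilament Nefm (-2.92 ± 0.18, adjusted p = 2.4e-10), Krt17 (-2.68 ± 0.49, adjusted p = 0.000166) and Krt80 (-2.08 ± 0.40, adjusted p = 0.000275). Krt17 (3.87 ± 0.49, adjusted p = 2.57e-06) and Krt80 (3.78 ± 0.40, adjusted p = 2.55e-07) were thus also higher in H455R than in R448Q.

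**Figure D5:**
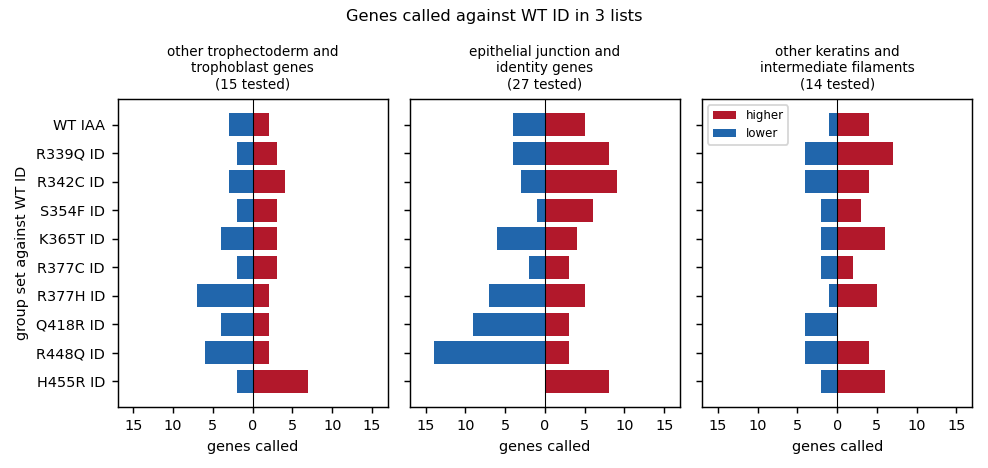
Genes called against WT ID in 3 lists, with higher genes to the right of 0 and lower genes to the left, by group. The epithelial list has 14 lower genes in R448Q and none lower in H455R, and the trophectoderm list has 7 higher in H455R and 7 lower in R377H.

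Markers of other cell types that the cultures could hold were counted too. Of 12 tested primitive endoderm genes, 5 rose (background 12.6%) and 1 fell (10.5%) in H455R. In R448Q 3 rose (22.8%) and 3 fell (23.1%), shares near those of all genes. In WT IAA 4 rose (9.96%) and 1 fell (10.7%), and in R339Q 5 rose (11.8%) and 1 fell (9.70%). The list's median log2 fold change was 0.476 in H455R, 0.187 in R448Q, -0.117 in WT IAA and 0.538 in R339Q. The endocytic adaptor gene Dab2 had log2 fold changes of 1.35 ± 0.37 in H455R (adjusted p = 0.0114), 1.60 in WT IAA (adjusted p = 0.00456), 1.33 in R339Q (adjusted p = 0.0136) and -2.42 in R448Q (adjusted p = 2.11e-05). In WT IAA and R448Q it ran against the median of its list. The summed level of this list of 15 was 736 to 778 TPM in H455R, 750 to 751 in R339Q, 690 to 707 in WT IAA, 615 in both R448Q libraries and 631 to 689 in WT ID. Of 11 fibroblast genes 5 were tested, of which 3 rose (12.6%) and 0 fell (10.5%) in H455R. In R448Q 1 rose (22.8%) and 2 fell (23.1%). The list of 11 summed to 30.0 to 33.0 TPM in H455R, 14.8 to 18.0 in R448Q and 25.7 to 27.7 in WT ID. S100a4 was at 0 and Dcn at a mean of 0.198 normalized counts. Of 10 tested mesoderm and BMP response genes, 5 rose (12.6%) and 0 fell (10.5%) in H455R, and 6 rose (22.8%) and 1 fell (23.1%) in R448Q. In WT IAA 4 rose (9.96%) and 1 fell (10.7%), and in R339Q 3 rose (11.8%) and 0 fell (9.70%). Among them Id3 rose in WT IAA (2.24 ± 0.44, adjusted p = 0.00139), R339Q (1.77, adjusted p = 0.00712), H455R (1.53, adjusted p = 0.0163) and R448Q (1.85, adjusted p = 0.00182). That list summed to 49.6 to 53.4 TPM in H455R, 43.5 to 55.0 in R448Q and 27.9 to 31.5 in WT ID. The pluripotency list summed to 6410 to 6650 TPM in H455R, 6750 to 7010 in R448Q and 5900 to 6150 in WT ID. Of its 14 genes, however, 2 rose (background 12.6%) and 4 fell (10.5%) in H455R, with a median log2 fold change of -0.0762. In R448Q 8 rose (22.8%) and 2 fell (23.1%), with a median of 0.328. Their part in the results was not tested.

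By the likeness of 11 group means (Pearson's r of log2 values, genes with a mean of at least 50 normalized counts), the genes most like Krt7 were Cdon (0.949), Fosl2 (0.942) and Tgfbr2 (0.931). Those most like Krt8 were Ppp1r18 (0.92), Trh (0.916) and Dennd4c (0.915), those most like Krt18 were Ptk7 (0.952), Acvrl1 (0.948) and Mybpc3 (0.939), and those most like Krt19 were Syne2 (0.948), Mvp (0.948) and 4930526A20Rik (0.945). Ripply3 (0.972) was most like Gata2, Ifngr1 (0.931) most like Gata3, Rab3a (0.962) most like Tfap2c and Loxl1 (0.909) most like Hand1. These r are the highest picked from many genes over 11 groups, and no background was computed for them. H455R and R448Q, at the ends of the keratin range, were not left out here. The 3 genes most like Cdx2 were Dcaf6 (0.966), Yod1 (0.942) and B3gnt7 (0.932), all on chromosome 1, where Cdx2 is not. The median of chromosome 1 was 0.473 above that of all genes in R448Q, 0.269 in K365T, 0.244 in Q418R and 0.0192 in H455R. Cdx2 was called higher in R448Q, Q418R and H455R but not in K365T.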

How the data were processed

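RNA was depleted of ribosomal RNA for stranded libraries, per the labels' protocols. Trim Galore, STAR and DESeq2 are named with mm10 in the submitters' processing notes, without versions. The counter, the annotation and the strand of counting: not given in the sources used here. Normalized counts deposited by the authors are a signal made by dividing counts by 1 size factor per library. The authors also deposited TPM, and WT UN has separately scaled tables. Whole reads were recovered from steps (100% of values within 0.001). Columns from outside the series numbered 0.

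Genes with a mean of at least 10 (18713 of 55291) were fitted as log2(normalized count + 1) with limma 3.58.1 in R 4.3.3 (1 coefficient per group, 22 libraries, eBayes trend, 11 residual and 8.13 prior df). The p-values are two-sided, with Benjamini-Hochberg adjustment for each of 14 comparisons on its own. The fits were tested on simulated data. Alternatives were edgeR 4.0.16 and DESeq2 1.42.0 on reads, TPM (+ 0.1), a pseudocount of 5, no filter, quantile normalization, a replicate block, centring per chromosome and leaving out each library. For WT UN, 1 was added to TPM. Chosen after seeing the data were leaving out each library for WT UN and correlations without H455R and R448Q. Gene coordinates are from GENCODE M21 (mm10).

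All 10 genes were named by their list. From other lists, up to 3 called genes with the largest change were named. The genes and lists were chosen with earlier results of these data known.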

Additional observations from a re-analysis of the deposited data

Results flagged for a closer look

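In all, 14 differences between substitutions close together in CTCF passed the test of the difference itself (limma, adjusted p under 0.05). Of all 18713 tested genes, 8349 passed in H455R against R448Q and 4991 in R342C against R339Q. In K365T against S354F 5277 passed, and in R377C against R377H 3552. The 14 are given as log2 fold changes with the first line minus the second, n = 2 each. H455R minus R448Q gave Krt7 4.12, Krt19 3.57, Krt18 2.52, Krt8 2.06, Hand1 1.43, Gata3 1.10, Tfap2c 0.36 and Cdx2 -1.04. R342C minus R339Q gave Gata2 2.10, Krt8 -1.31 and Krt19 -1.71. K365T minus S354F gave Krt7 -1.69 and Krt19 -1.42. R377C minus R377H gave Cdx2 1.95. Those of Gata3, Tfap2c and Cdx2 in H455R minus R448Q did not hold with every library left out in turn. Nor did that of Krt19 in K365T minus S354F. With 1 line per substitution, effects of the 2 cannot be told apart. Groups of 2 libraries are too small for a check of single outlying libraries.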

How the results depend on the processing

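No called value of a single gene changed sign under any alternative run. Of 72 results for single genes, calls ended in 14 with no filter on low counts, 8 under DESeq2, 6 with quantile normalization, 3 on TPM, 3 with centring per chromosome and 1 under edgeR. Calls were gained in 5 with quantile normalization, 4 under DESeq2, 4 on TPM, 3 under edgeR, 1 with centring per chromosome and 1 with a pseudocount of 5. With no filter on low counts, genes called among the members fell to 3 in R342C, 1 in S354F, 1 in K365T and 3 in R377H, where 39578 genes enter the adjustment. Of those 39578 genes, 3467 were called in R342C, 1396 in S354F, 5332 in K365T and 4129 in R377H. DESeq2 gave 1 in S354F and 1 in K365T, and TPM gave 3 in R377H and 2 in R377C against R377H. Over all genes DESeq2 called 2011 in S354F and 5866 in K365T. On TPM 4675 were called in R377H and 3292 in R377C against R377H. The cause was not tested. With 1 added to TPM in place of 0.1, which shrinks ratios of low genes, 2 members in WT ID and 3 in WT IAA were 2-fold from WT UN, not 5 and 5.

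Leaving out 1 library at a time, the members called against WT ID numbered 3 to 5 in WT IAA, 3 to 5 in R339Q, 2 to 4 in R342C, 0 to 1 in S354F, 2 to 3 in K365T, 0 to 2 in R377C, 2 to 4 in R377H, 2 to 4 in Q418R, 5 to 6 in R448Q and 5 to 7 in H455R. They numbered 3 to 4 in R342C against R339Q, 1 to 3 in K365T against S354F, 1 to 2 in R377C against R377H and 6 to 7 in H455R against R448Q. Counts against WT UN were 4 to 6 for WT ID and 5 to 6 for WT IAA. The count over all genes moved by over 1.5 times in 31 of these 56 fits, for R377C to 582 to 905 genes against 1514 with all libraries. Such a fit has 1 library in 1 group, which is assumed to vary like the other groups. The member counts of these fits were not set against the share of all genes called, so they show no excess over it. With all libraries that background was already wide, at 8578 of 18713 genes in R448Q and 4322 in H455R.

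No pairing by replicate number was seen across all groups. Over 55 pairs of groups the correlation of same-numbered deviations ran between -0.248 and 0.382 (median 0.023), over 0.1 in 10. Whether some of the groups were paired by replicate number was not tested. With the number as a block, 1 call ended (Gata3 in K365T, adjusted p = 0.0529) and no count of members moved by over 1.5 times. The block gave 6 members in R448Q and 8 in H455R, as without it. Of all 18713 genes it called 8611 in R448Q and 4335 in H455R. Depth limits Elf5, Cdx2 and Gata3 in R377H and WT UN, Hand1 in R448Q and WT UN, Krt19 in R448Q and Krt7 in WT UN, with under 20 reads in both libraries. WT ID replicate 2, behind the calls of Hand1 and Gata3, held 12 and 19 reads of them.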
